A study of Nicotiana tabacum with 6 samples.

Results

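Transcripts of 3 nuclear genes for thylakoid proteins of the tobacco leaf are described here: Lhcb4 (listed as ncbi_107774251) and Lhcb6 (ncbi_107792047), for minor antenna proteins of photosystem II, and atpC (ncbi_107813955), for a subunit of the chloroplast ATP synthase. They are 3 of 68476 loci in the deposited table, and were found by their gene identifiers. They had been picked with their values in the comparison of the groups already known, so their levels and changes are given as a description. A call of any of them by the fit over all loci is no test of it. The libraries were made from mature leaves of Nicotiana tabacum, 3 with the label WT, for wild type, and 3 with the label OE-NtispH, for plants overexpressing NtispH. The labels name no promoter, transgenic line, plant age or treatment, and do not state if separate plants were used for the replicates, so a p-value below reflects the variation among 6 libraries, part of which may be technical.

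Photosystem II is surrounded by light-harvesting proteins that bind chlorophyll. Most of this antenna is made of trimers, and the minor antenna proteins, the products of Lhcb4, Lhcb5 and Lhcb6 (also called CP29, CP26 and CP24), are single proteins that link the trimers to the reaction centre and take part in the safe release of excess light energy. Electron transport through the photosystems pumps protons into the thylakoid lumen, and the chloroplast ATP synthase uses that gradient to make ATP. The product of atpC is the gamma subunit, the central shaft that turns inside the catalytic head, and it carries the pair of cysteines through which light switches the chloroplast enzyme on. All 3 proteins are coded in the nucleus and imported into the chloroplast, whereas other subunits of the photosystems and of the ATP synthase are coded in the chloroplast genome.

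Each value is an FPKM, the fragments of a transcript scaled by its length and by the mapped fragments of the library, as the authors deposited it. FPKM summed to between 747832 and 770304 per library, and the number of reads is unknown, so no counting interval can be given. The locus named ISPH did not follow the labels library by library. ISPH (LOC107760258), for the last enzyme of the plastid pathway to terpenoid precursors, was at 108.2, 3038 and 558.6 FPKM in the libraries labelled WT replicates 1, 2 and 3, and at 2761, 684.6 and 853.7 in those labelled OE-NtispH. Its fitted log2 change was 1.04, but the groups overlapped, and the labels do not say if this copy was the one overexpressed. All directions below are therefore between libraries as labelled. Of 3 leaf markers, 2 were abundant, with CAB21 (LOC107776229) at 3031 FPKM or more in every library and 1 Rca locus (LOC107798594) at 679.5 or more. The summed level of the 3 moved with the groups in the same direction as the genes described here, lying at 4692 to 5164 FPKM in WT and at 3721 to 4363 in OE-NtispH, and none was at 0. Of 11 root markers 8 were at 0 in every library. The others were QPT2A, at 29.8 to 32.9 FPKM in WT and 16.5 to 37.6 in OE-NtispH, and BBLa and BBLc, at 0.589 FPKM or less. Markers of dividing cells were low and moved with the groups too: the summed level of 5 such genes, none of them at 0 throughout, was 11.0 to 12.3 FPKM in the WT libraries and 4.47 to 7.18 in the OE-NtispH libraries, and the part of either list in the results below was not tested. In bulk leaf RNA, fewer cells of a type and less RNA per cell cannot be told apart.

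Lhcb4 was among the most abundant transcripts of these leaves. It stood at 4404, 4971 and 4688 FPKM in the 3 WT replicates in order and at 2794, 3640 and 3210 FPKM in OE-NtispH replicates 1, 2 and 3. Every OE-NtispH library lay below every WT library, and the lowest of the 6 was OE-NtispH replicate 1. The means were 4688 ± 283.5 and 3215 ± 422.9 FPKM (SD, n = 3), which is 31.4% less in OE-NtispH and a log2 change of -0.55 ± 0.15 (SE) on the scale of log2(FPKM + 1). By level it ranked between 5 and 7 among all loci in the WT libraries and between 8 and 10 in the OE-NtispH libraries. It alone made up 0.578% to 0.645% of all FPKM in WT and 0.374% to 0.475% in OE-NtispH.

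Lhcb6 was less abundant than Lhcb4 in every library and differed most between the groups. It was at 1662, 1899 and 1830 FPKM in the 3 WT replicates in order and at 662.3, 1134 and 922.1 FPKM in OE-NtispH replicates 1, 2 and 3. The groups did not overlap, and the lowest WT value was 1.47 times the highest OE-NtispH value. The means were 1797 ± 122.1 and 906.3 ± 236.4 FPKM (SD, n = 3), 49.6% less in OE-NtispH, with a log2 change of -1.02 ± 0.20 (SE). Relative to the mean of WT, the OE-NtispH libraries held 36.9%, 63.1% and 51.3% of the level. The OE-NtispH libraries were also further apart among themselves than the WT libraries, their highest value being 1.71 times the lowest, against 1.14 times in WT. Its rank among all loci went from 55 to 58 in WT to 85 to 146 in OE-NtispH.

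The gamma subunit gene atpC had the narrowest spread in WT. It stood at 426.6, 417.6 and 421.3 FPKM in the 3 WT replicates in order, a coefficient of variation of 1.07%, and at 260.0, 303.7 and 306.7 FPKM in OE-NtispH replicates 1, 2 and 3. Again no OE-NtispH library reached the lowest WT library, which was 1.36 times the highest OE-NtispH value. The means were 421.9 ± 4.53 and 290.1 ± 26.2 FPKM (SD, n = 3), 31.2% less in OE-NtispH, with a log2 change of -0.54 ± 0.13 (SE). It ranked between 217 and 225 among all loci in WT and between 289 and 335 in OE-NtispH.

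**Figure D1:**
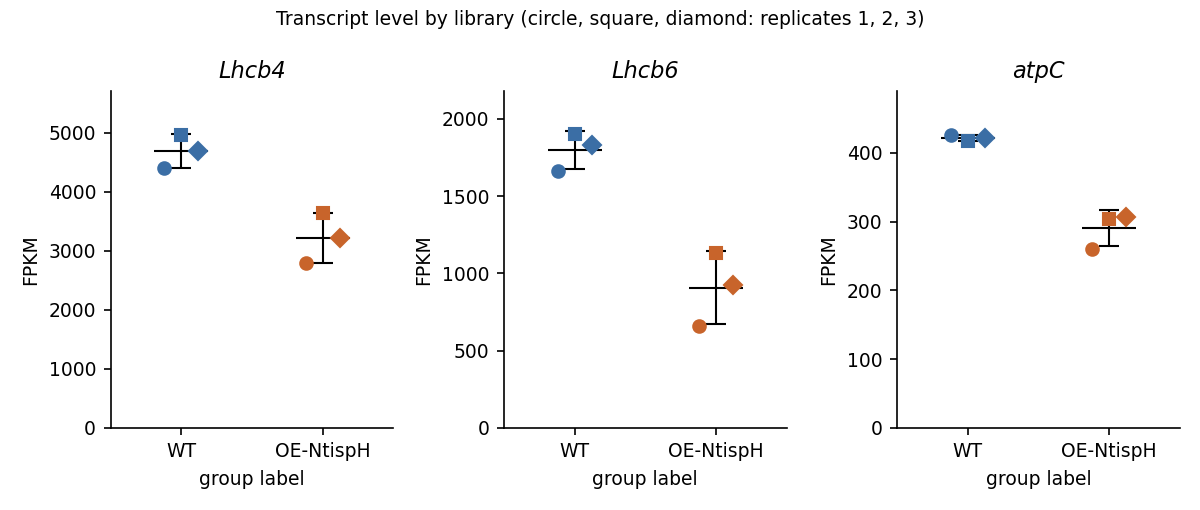
FPKM of Lhcb4, Lhcb6 and atpC in each library, with the mean (long bar) and SD (whiskers) of the 3 libraries of each label. In each panel the 3 WT libraries lie above the 3 OE-NtispH libraries, and the lowest point is OE-NtispH replicate 1, at 2794, 662.3 and 260.0 FPKM.

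In both groups the order of the levels was Lhcb4, then Lhcb6, then atpC, with no overlap between genes. The groups were apart for all 3 genes and lower in OE-NtispH, which held for 8.59% of the 40725 loci tested. Among the loci of like abundance described below, it held for 45 of 56 around Lhcb4, 70 of 100 around Lhcb6 and 30 of 100 around atpC. Of the 3, Lhcb6 alone was among the loci called between the groups (limma on log2(FPKM + 1), Benjamini-Hochberg adjustment at 0.05), as were 1.81% of the loci tested; since the 3 were chosen on this comparison, nothing is read from these counts. That call is therefore no test of Lhcb6, and it held in 5 of 14 alternatives. It was lost with median-of-ratios scaling, with quantile normalization, where atpC alone was called, without a filter, without trend and robust variance, with the replicate block, and when WT replicate 1, 2 or 3 or OE-NtispH replicate 1 was left out. The median log2 change of all tested loci was 0.13, so that relative to the median locus the changes of Lhcb4, Lhcb6 and atpC were -0.68, -1.15 and -0.67. OE-NtispH replicate 1 had the lowest value of all 3 genes and also the highest ISPH level of its group. In WT the library with the highest ISPH level, replicate 2, had the highest Lhcb4 and Lhcb6 but the lowest atpC of its group. The libraries also differed in how much of the FPKM the most abundant loci took: the top 100 loci held 30.6% to 32.2% in WT and 23.4% to 26.5% in OE-NtispH, with the lowest share in OE-NtispH replicate 1.

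Set beside loci of like abundance, the 3 genes differed from one another. The change of Lhcb4 was close to that of its neighbours in level. Only 6 loci were more abundant than Lhcb4, and together with the 50 next below it they had a median log2 change of -0.37 (quartiles -0.56 and -0.26), 53 of the 56 were below 0, and 15 had a lower change than Lhcb4. Around Lhcb6, the 50 loci above and 50 below in rank, with means from 927.3 to 2611 FPKM, had a median log2 change of -0.42 (quartiles -0.56 and -0.23). Of these 100 loci, 83 were below 0, and 3 had a lower change than Lhcb6. Among all other loci averaging 1000 FPKM or more, 2 of 106 had a lower change than Lhcb6 and 28 had a lower change than Lhcb4.

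Around atpC the picture was mixed. The 100 nearest loci, with means from 283.1 to 491.2 FPKM, had a median log2 change of 0.14 with quartiles of -0.50 and 0.81, and 42 were below 0. The change of atpC lay 0.68 below that median on the log2 scale, but 25 of the 100 had a lower change, since loci at this level spread widely in both directions. The median depended on the window. With 25 loci on each side it was 0.30, and 11 of 50 had a lower change than atpC. With 100 on each side it was 0.10, and 46 of 200 had a lower change. The values of atpC were steady in WT. None of the 100 nearest loci had a smaller coefficient of variation over the WT libraries, and their median was 11.2%. In OE-NtispH its coefficient of variation of 9.02% was also smaller than that of 84 of the 100. Lhcb6 was at the other end, with 26.1% in OE-NtispH against a median of 15.8% for the loci around it.

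**Figure D2:**
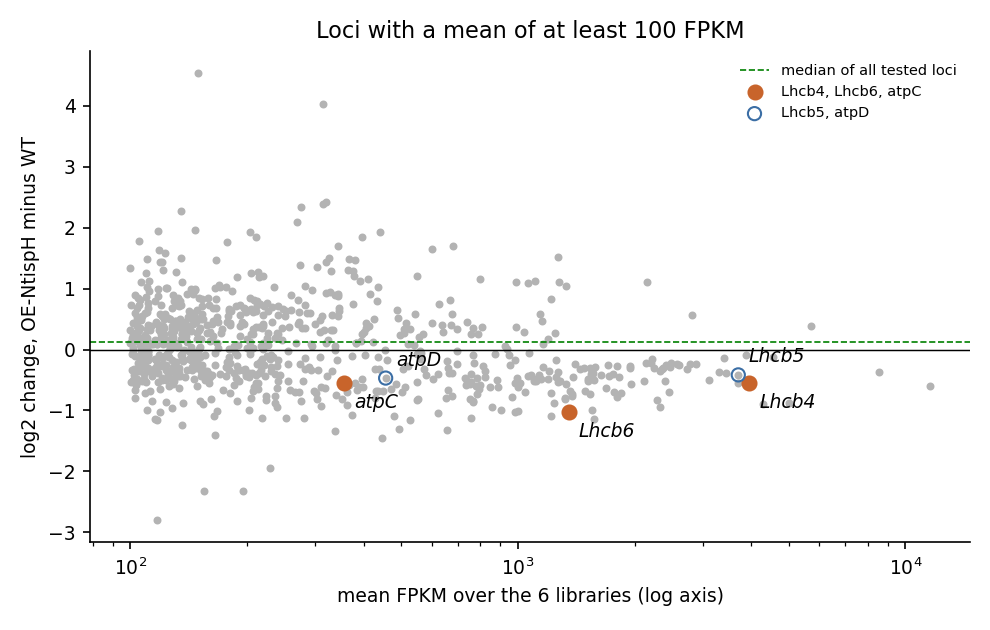
Log2 change between the labelled groups (OE-NtispH minus WT, log2(FPKM + 1) scale) against mean FPKM over the 6 libraries (log axis) for every locus averaging 100 FPKM or more. Above 1000 FPKM most loci lie below 0, Lhcb4 within that band and Lhcb6 near its lower edge at -1.02, while the loci around atpC spread to both sides of 0.

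The shift of the most abundant loci makes the choice of scaling matter for Lhcb4. With quantile normalization, which gives every library the same set of values and so keeps only ranks, the log2 change of Lhcb4 was -0.20, with 13.2% less in OE-NtispH. That of Lhcb6 was -0.74 and that of atpC -0.67, or 39.0% and 37.2% less. With median-of-ratios scaling, which centres the bulk of loci, the log2 changes of Lhcb4, Lhcb6 and atpC were -0.71, -1.18 and -0.70. Under both scalings each gene's OE-NtispH libraries stayed below its WT libraries.

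Ratios between genes within a library do not change when a library is scaled by 1 factor, but they do under quantile normalization, which was added for the ratios after their values had been seen. The ratio of Lhcb6 to Lhcb4 was 0.377, 0.382 and 0.390 in the 3 WT replicates in order and 0.237, 0.312 and 0.287 in OE-NtispH replicates 1, 2 and 3. Every OE-NtispH library was thus below every WT library, and the group mean in OE-NtispH was 0.727 times that in WT; with quantile normalization the ranges were 0.205 to 0.313 in OE-NtispH and 0.364 to 0.392 in WT, also apart. The ratio of atpC to Lhcb4 depended on the scaling. From the FPKM as deposited it was 0.0902 ± 0.00644 in WT and 0.0907 ± 0.00640 in OE-NtispH (SD, n = 3), a difference smaller than the spread within either group, but with quantile normalization it was 0.0969 to 0.113 in WT and 0.0689 to 0.0798 in OE-NtispH, without overlap. The ratio of Lhcb6 to atpC was 3.90 to 4.55 in WT and 2.55 to 3.73 in OE-NtispH from the FPKM as deposited, without overlap, whereas with quantile normalization it was 3.46 to 3.76 and 2.97 to 4.04, and the groups overlapped.

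Lhcb5 (LOC107782430) codes for the remaining minor antenna protein. It is not one of the 3 genes, but its list too was chosen with earlier results of these data known. It was at 3961, 4609 and 4132 FPKM in the 3 WT replicates in order and at 2842, 3410 and 3275 FPKM in OE-NtispH replicates 1, 2 and 3. The groups did not overlap, as held for 45 of the 56 loci around Lhcb4 in level, Lhcb5 among them. Lhcb5 missed the threshold, with a log2 change of -0.42 ± 0.14 (SE, adjusted p by limma = 0.120), and with quantile normalization its change was -0.01. Set against Lhcb5, Lhcb6 stood at a ratio of 0.425 ± 0.0160 in WT and 0.282 ± 0.0498 in OE-NtispH (SD, n = 3). Lhcb4 stood at 1.08 to 1.13 times Lhcb5 in WT and at 0.980 to 1.07 times in OE-NtispH. Lhcb4 and Lhcb5 had about the same mean in OE-NtispH, 3215 ± 422.9 and 3175 ± 297.0 FPKM (SD, n = 3), closer than the spread of either, while in WT Lhcb4 was above Lhcb5 in each library.

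The nuclear gene atpD (LOC107797795), for the delta subunit that joins the head of the chloroplast ATP synthase to its stator, belongs to the same enzyme as atpC. It is not one of the 3 genes, but its list too was chosen with earlier results of these data known. It was at 520.1, 562.1 and 505.5 FPKM in the 3 WT replicates in order and at 347.3, 407.1 and 393.7 FPKM in OE-NtispH replicates 1, 2 and 3. The groups were apart, as held for 30 of the 100 loci around atpC in level, atpD among them. The log2 change was -0.47 ± 0.13 (SE, adjusted p by limma = 0.0802), which did not pass. As for atpC, the change remained under quantile normalization, at -0.56. The ratio of atpC to atpD was 0.799 ± 0.0488 in WT and 0.758 ± 0.0184 in OE-NtispH (SD, n = 3), with overlapping values.

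**Figure D3:**
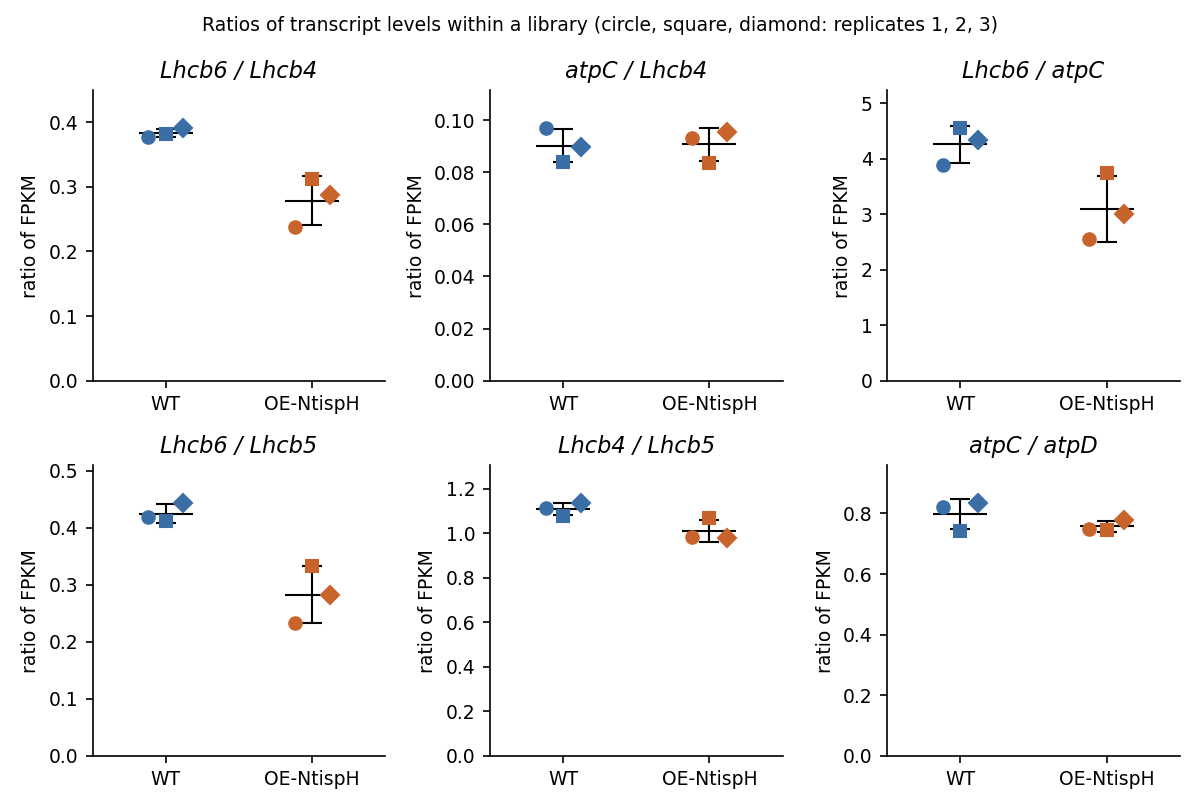
Ratios of FPKM between genes within each library, with the mean (long bar) and SD (whiskers) of the 3 libraries of each label. Ratios with Lhcb6 as numerator are lower in all OE-NtispH libraries (Lhcb6 to Lhcb4 at 0.237 to 0.312 against 0.377 to 0.390), while atpC to Lhcb4 and atpC to atpD overlap between the labels. With quantile normalization, which is not plotted, Lhcb6 to atpC overlaps between the labels and atpC to Lhcb4 does not.

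For the chloroplast-encoded subunits of the same ATP synthase no difference was shown. The genes atpA, atpB, atpE, atpF, atpH and atpI had a median log2 change of 0.09 beside 0.13 for all tested loci, with all 6 above 0 as deposited and 3 of 6 above 0 with median-of-ratios scaling or quantile normalization. None passed the test (limma, adjusted p of 0.128 or more, 1 of 6 at unadjusted p under 0.05). The catalytic subunit gene atpB was at 3.74 ± 0.769 and 3.83 ± 0.0321 FPKM in WT and in OE-NtispH (SD, n = 3), and atpA, for its partner in the head, at 21.0 ± 1.42 and 21.4 ± 1.55 (SD, n = 3). The membrane subunit gene atpI was at 14.9, 14.5 and 13.3 FPKM in the 3 WT replicates in order and at 22.3, 15.3 and 26.4 in OE-NtispH, with a log2 change of 0.52 ± 0.19 (SE, adjusted p by limma = 0.128). Libraries from poly(A) RNA capture chloroplast transcripts poorly, so these values are low and do not measure the chloroplast's own transcript pool, nor can they be set against the level of atpC. Mitochondrial ATP synthase genes atp1, atp6 and atp9 were at means of 0.469 FPKM or less and were not tested.

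Of the other named nuclear genes of the thylakoid, 15 of 16 tested had a log2 change below 0, with a median of -0.39, where 33.7% of all tested loci were below 0 and the median was 0.13. Most of them are very abundant, 10 of the 16 averaging 1000 FPKM or more, and at that level 86.0% of 107 loci were below 0, with a median of -0.41. From 100 to 1000 FPKM 46.3% of 707 loci were below 0, with a median of 0.08. None of the 15 passed alone. By limma 9 of them were at unadjusted p under 0.05, as were 10747 of all 40725 tested loci. The 16 comprise the Lhcb5 and atpD loci above, CAB21, 10 loci of photosystem II and 3 of electron transport. Several of the photosystem II loci are copies for the same protein. The 16 were chosen with earlier results of these data known. With quantile normalization 10 of 16 were below 0. Only loci with a name beyond a locus number could enter the lists, and 959 of the 40725 tested loci had one. No nuclear photosystem I gene was among the 16, so they are not a survey of the nuclear thylakoid genes.

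All 10 photosystem II loci were below 0, with a median log2 change of -0.41 and changes from -0.69 to -0.09 (7 of 10 with quantile normalization). Several of them are copies named for the same protein (PsbO, PSBP or PsbQ), so the 10 loci do not stand for 10 different proteins. Of the 10 loci 8 averaged 1000 FPKM or more, where the median of all loci was the same -0.41 and 92 of 107 were below 0. None passed (limma, adjusted p of 0.0958 to 0.696), and 7 were at unadjusted p under 0.05, beside 10747 of all 40725 tested loci. The lowest was psbS (LOC107778533), for the protein that senses lumen acidity and triggers the release of excess light energy. It was at 516.7, 563.9 and 564.4 FPKM in the 3 WT replicates in order and at 280.9, 490.7 and 283.9 in OE-NtispH, where replicate 2 was near the WT level (limma, adjusted p = 0.103). Genes of the oxygen-evolving complex that caps the water-splitting site lay between: PsbO (LOC107766588) at 1781 ± 88.5 and 1330 ± 125.0 FPKM and psbQ (LOC107767928) at 2624 ± 182.8 and 2197 ± 72.0 (SD over n = 3 libraries, with limma's adjusted p of 0.105 and 0.254). PSBR (LOC107816978), for another lumen-side subunit, was the most abundant at 4001 ± 116.7 and 3767 ± 208.3 FPKM in WT and in OE-NtispH (SD over n = 3 libraries, with limma's adjusted p = 0.696). It and CAB21, for a protein of the main antenna, at 3568 ± 207.7 and 3252 ± 278.0 FPKM (SD over n = 3 libraries, with limma's adjusted p = 0.559), had overlapping groups. The trimer gene CAB21 and Lhcb4 were thus at 3568 and 4688 FPKM in WT, and at 3252 and 3215 in OE-NtispH.

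Of the electron transport genes, the Rieske protein genes petC1 (LOC107765416) and petC2 (LOC107805497), for a subunit of the cytochrome complex between the photosystems, had log2 changes of -0.17 and -0.28 and did not pass (limma, adjusted p of 0.401 and 0.215). FNR (LOC107825625), named for ferredoxin-NADP reductase, was the exception of the 16. It rose from 18.3, 16.4 and 14.5 FPKM in the 3 WT replicates in order to 36.0, 32.0 and 26.2 in OE-NtispH, with a log2 change of 0.89 ± 0.15 (SE, adjusted p by limma = 0.0365). It passed in 6 of 14 alternatives, with an adjusted p from 0.00734 to 0.172 over the 14 (limma). It missed when WT replicate 1, 2 or 3 or OE-NtispH replicate 1 was left out. It also missed with median-of-ratios scaling, without a filter, without trend and robust variance, and with the replicate block. At a mean of 23.9 FPKM it lay far below the other 15, the lowest of which, psbS, had a mean of 450.1.

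**Figure D4:**
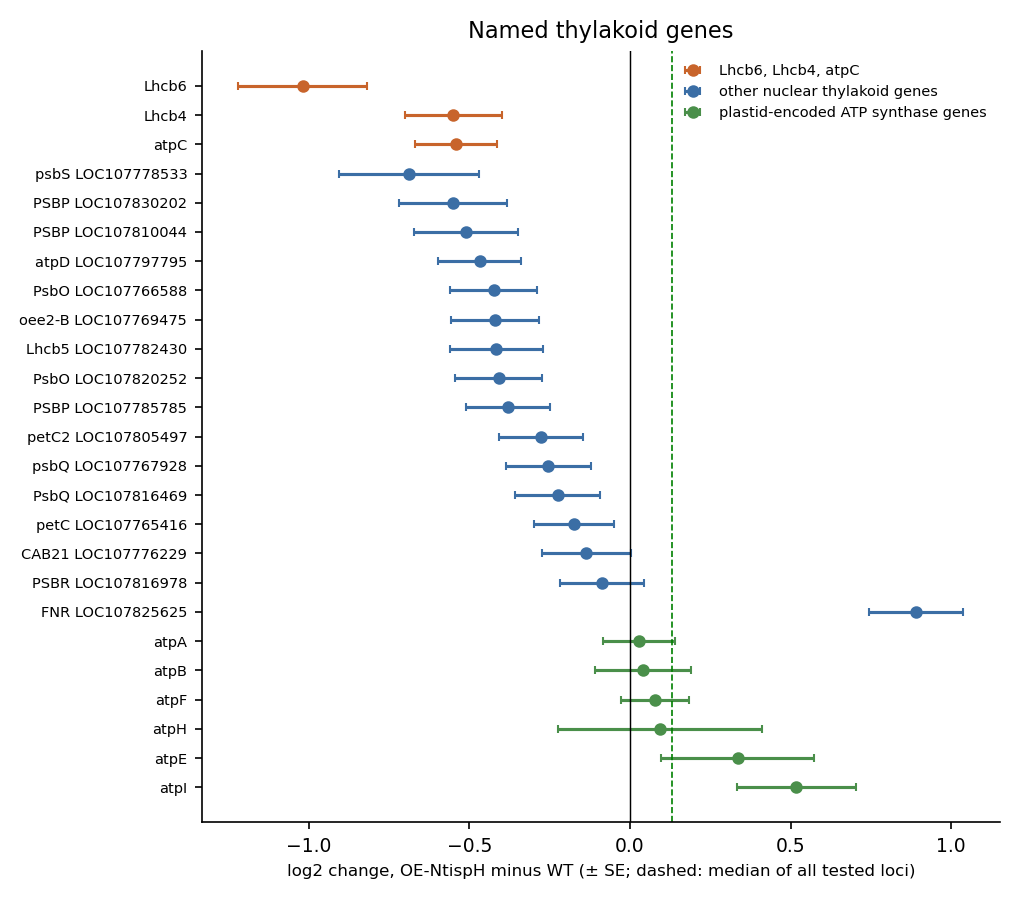
Log2 change between the labelled groups (OE-NtispH minus WT, log2(FPKM + 1) scale, whiskers ± SE of the limma fit) for Lhcb6, Lhcb4 and atpC, the 16 other named nuclear thylakoid genes and the 6 chloroplast-encoded ATP synthase genes. Nuclear genes other than FNR lie below 0 (5 of these 15 lie above 0 under quantile normalization), and the chloroplast-encoded genes lie around the median of all loci at 0.13 (3 of these 6 are above 0 under median-of-ratios scaling or quantile normalization).

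Likeness of pattern over the 6 libraries was measured as the root-mean-square difference of log2(FPKM + 1) after each gene's mean was subtracted, among 531 named loci averaging at least 10 FPKM. The nearest to Lhcb6 was GAPB (LOC107801158), for a chloroplast glyceraldehyde 3-phosphate dehydrogenase subunit of the Calvin cycle, at a difference of 0.0644. It was at 202.4, 241.2 and 226.6 FPKM in the 3 WT replicates in order and at 81.3, 124.7 and 112.3 in OE-NtispH. It shared with Lhcb6 both the low OE-NtispH replicate 1 and the high WT replicate 2. Neither was particular to this pair: Lhcb4, Lhcb5, atpD and PsbO (LOC107766588) had both, and atpC had the low OE-NtispH replicate 1 only. Next were psy-1 (LOC107772713), for the entry enzyme of carotenoid synthesis, and the catalase gene cat1 (LOC107799583), both at 0.129. Lhcb4 was only the 18th nearest to Lhcb6, at 0.262, and atpC the 25th, at 0.294.

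Lhcb4 and atpC were nearer to each other, at 0.0844. The nearest to Lhcb4 were agpL3 (LOC107806492), for a large subunit of the starch-synthesis enzyme ADP-glucose pyrophosphorylase, atpD and PsbO (LOC107766588), at 0.0633, 0.0736 and 0.0781. For atpC they were atpD at 0.0667, NtSPP2 (LOC107819363), for the phosphatase of the last step of sucrose synthesis, at 0.0687, and dxs (LOC107790348), for the entry enzyme of the plastid pathway that ISPH ends, at 0.0760. The steady WT values of atpC were matched by dxs, at 113.4, 113.6 and 113.2 FPKM in the 3 WT replicates in order, against 60.5, 76.7 and 75.6 in OE-NtispH. All 6 points of such a profile share the libraries and their scaling, so likeness over them is a description of these libraries.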

How the data were processed

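Poly(A) RNA of mature leaves was sequenced in 6 libraries, 3 per group, with group and replicate number from the sample titles. The authors deposited FPKM values, already scaled by transcript length and library size. Per the submitters' processing notes, fastp, Bowtie2, HISAT2, StringTie and RSEM were used, with no versions or roles. The sources used here do not give the build, the annotation or the handling of multi-mapping fragments. Because tobacco carries both parental genomes, reads from near-identical gene copies could have been shared out or misplaced among them, which makes the level of any one copy uncertain. RefSeq (assembly ASM71507v2) supplied gene names and gene order, and 49268 of 61780 gene numbers matched.

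All 40725 loci averaging 0.5 FPKM or more, the 3 genes included, were fitted as log2(FPKM + 1) with limma 3.58.1 in R 4.3.3 (group as the only term, robust variance with an intensity trend, two-sided). P-values were adjusted over all of these loci by Benjamini-Hochberg, with a threshold of 0.05. This scale understates the change of low genes. The fit was checked on simulated data, where 51.8% of loci given a log2 change of 1 and 90.4% of those given 2 were called. Of the simulated calls 3.29% were false. The simulation changed 200 loci per draw and drew each locus independently. It does not reproduce shifts shared by many loci of a library, so these rates may not hold for the real libraries. Smaller changes were not simulated, so a gene that did not pass may still have changed. Tables and figures used Python 3.11.15, pandas 2.3.3, numpy 2.4.6 and matplotlib 3.10.9. The 3 genes and the gene lists were chosen with earlier results of these data known. Lists were formed by gene symbol (antenna, photosystem I and II, electron transport, ATP synthases and the chloroplast NDH complex), and symbols beginning with OEE were added to photosystem II after the names had been seen. Genes named are the 3 genes, the list genes that were most abundant or passed, the 3 nearest in pattern to each, and ISPH, besides psbS, psbQ, atpI, atpB and the petC genes, which were chosen after their values were seen. Homologs by protein sequence were not analysed here.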

Additional observations from a re-analysis of the deposited data

How the results depend on the processing

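Lhcb6, Lhcb4 and atpC were lower in OE-NtispH under all 14 alternatives run. With median-of-ratios scaling the log2 changes of Lhcb4 and atpC were -0.71 and -0.70 and the median of the 16 nuclear thylakoid genes was -0.55; with quantile normalization they were -0.20, -0.67 and -0.020. Leaving out 1 library at a time, the log2 change ranged from -1.20 to -0.81 for Lhcb6, -0.64 to -0.45 for Lhcb4 and -0.58 to -0.47 for atpC.

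The count of 737 loci called rests on the settings and on single libraries. It was 53 without trend and robust variance, 38 without a filter, 1375 among loci averaging 2 FPKM or more, 330 with median-of-ratios scaling (136 higher and 194 lower, in place of 506 and 231) and 595 with quantile normalization (235 and 360). Leaving out WT replicate 1, 2 or 3 gave counts of 0, 1 and 17, and leaving out OE-NtispH replicate 1, 2 or 3 gave 0, 1355 and 3103. For the counts of 0 by limma, 10207 loci (WT replicate 1 left out) and 7221 (OE-NtispH replicate 1 left out) had an unadjusted p under 0.05. Of the 16 nuclear thylakoid genes, 4 were called without OE-NtispH replicate 2 (FNR, psbS and the PSBP loci LOC107810044 and LOC107830202), and 0 without WT replicate 1, 2 or 3 or OE-NtispH replicate 1, with median-of-ratios scaling, without a filter, without trend and robust variance or with the replicate block (limma, 5 to 14 at unadjusted p under 0.05). In those settings with none of the 16 called, 7209 to 11633 of all tested loci were at unadjusted p under 0.05 (limma). The cause of the differences between settings was not tested.

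With the replicate number as a block 68 loci were called. Same-numbered libraries did not deviate together (correlations of -0.13, 0.04 and -0.16, against -0.09 to 0.19 for differently numbered ones). With 3 libraries per group, these correlations cannot decide if a number marks a shared plant, day or batch. The alternatives for protein homologs were not run. Read depth is unknown, which leaves counting error unquantified.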

Other observations

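The chloroplast-encoded genes of the lists showed no common direction. Of 29 tested, 13 had a log2 change below 0 and 16 above, with a median of 0.03, and none passed (limma, 1 at unadjusted p under 0.05). By list, all 4 tested photosystem I genes were below 0 and all 6 ATP synthase genes above 0 as deposited, while the other lists were mixed. For psaA and psaB the groups were apart and lower in OE-NtispH, as held for 8.59% of all tested loci. The photosystem I genes psaA and psaB, for the reaction centre, were at 13.2 ± 3.23 and 10.1 ± 1.76 FPKM and at 22.8 ± 0.848 and 19.8 ± 1.76 FPKM in WT and in OE-NtispH (SD, n = 3), and of 12 loci of the chloroplast NDH complex 6 were below 0 and 6 above, ndhB being listed for both copies of the repeat with identical values.

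The nearest measured protein-coding genes beside each gene in RefSeq order were looked up after the comparison had been seen. None of the 4 that were tested passed, and the other 2 were below the filter and not tested. By limma 3 of the 4 were at unadjusted p under 0.05, beside 10747 of all 40725 tested loci. The neighbours of atpC were LOC107821570, at 259.0 ± 8.62 and 167.0 ± 34.4 FPKM in WT and in OE-NtispH (SD over n = 3 libraries, with limma's adjusted p = 0.0698), and LOC107789265, under 0.4 FPKM in every library. Beside Lhcb6, LOC107802875 was at 12.9 ± 1.22 and 7.88 ± 2.22 FPKM and LOC107792048 at 3.14 ± 0.729 and 2.96 ± 0.572 (SD over n = 3 libraries, with limma's adjusted p of 0.0769 and 0.856). Beside Lhcb4, LOC107781843 was at 6.35 ± 1.38 and 8.99 ± 0.665 FPKM (SD over n = 3 libraries, with limma's adjusted p = 0.115), and LOC107768901 was listed at 0 in every library.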
